A study of Mus musculus with 6 samples.

Results

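Interferon response genes were followed in regulatory T cells that lack Blimp1. The set holds 40 genes named by symbol, of which 33 are genes best known as targets of type I interferon, 6 are GTPases best known as targets of interferon gamma (IFNγ), and the last is Irf1, a transcription factor that belongs to both responses. A probe is named for 39 of the 40, and 32 were bright enough to be tested, among 9593 genes tested in all. RNA came from peripheral Foxp3+ Treg (pTreg) cells, sorted as CD4+ Foxp3-GFP+ cells after naive CD4+ T cells had been transferred into RAG1-/- mice, which have no T or B cells of their own. CKO cells came from Thy1.2+ C57BL/6 Prdm1 flox/flox CD4-Cre+ donors and Ctrl cells from Thy1.1+ Prdm1 +/+ CD4-Cre+ donors, both with the Foxp3-GFP reporter, both 8 to 10 weeks old, and the CKO and Ctrl cells were injected together and recovered 6 to 8 weeks later. CD4-Cre acts in the thymus, so that Blimp1 was missing from the transferred cells before they became pTreg cells. There were 3 CKO and 3 Ctrl arrays. Fields of the labels disagree on whether these are iTreg or peripheral Treg cells, and a mark that reads P+I is present on the titles of replicates 2 and 3 and absent from those of replicate 1.

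Interferons are secreted signals of infection. Type I interferons act through the receptor chains Ifnar1 and Ifnar2, and their signal reaches DNA as a complex holding Irf9, which binds the interferon-stimulated response element (ISRE). IFNγ acts through Ifngr1 and Ifngr2, its early targets carry the gamma-activated sequence (GAS), and it induces Irf1, which in turn binds ISRE-like sites. The products include RNA-degrading and RNA-sensing enzymes, and GTPases of the immunity-related (IRG) and guanylate-binding (GBP) families that attack vacuoles holding microbes. Blimp1, the product of Prdm1, was first described as a repressor of the human gene for interferon beta, and the DNA site it prefers resembles those of the IRF proteins.

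The ISRE and GAS letters of 8 promoters are shown because their genes include some of the largest differences below and some that were small. The sequences are from RefSeq (GRCm38.p6), run 5′ to 3′ along the gene, and end before its start site, and capitals mark a match on either strand to the ISRE core (GAAA, any NN, GAAA) or the GAS core TTCNNNGAA. The first 3, of IRG genes, hold both motifs, and Irgm1 holds ISRE cores alone.
Igtp (chr11:58199503-58199539, + strand): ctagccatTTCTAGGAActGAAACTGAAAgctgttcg
Irgm2 (chr11:58214894-58214930, + strand): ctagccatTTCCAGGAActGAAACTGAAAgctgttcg
Tgtp1 (chr11:48992306-48992342, - strand): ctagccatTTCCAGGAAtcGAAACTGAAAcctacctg
Irgm1 (chr11:48871427-48871458, - strand): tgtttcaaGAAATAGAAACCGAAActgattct
Gbp3 (chr3:142559991-142560022, + strand): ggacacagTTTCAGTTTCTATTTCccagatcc
Gbp7 (chr3:142530222-142530300, + strand): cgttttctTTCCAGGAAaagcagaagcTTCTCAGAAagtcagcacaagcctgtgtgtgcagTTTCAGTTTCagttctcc
Isg15 (chr4:156200867-156200904, - strand): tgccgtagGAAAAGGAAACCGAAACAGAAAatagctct
Ifit3 (chr19:34583365-34583424, + strand): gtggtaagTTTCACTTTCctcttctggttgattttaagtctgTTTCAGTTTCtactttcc
The stretches of Igtp and Irgm2 are identical at 36 of 37 bases, and in both of them, as in Tgtp1, 2 bases separate the GAS core from the ISRE core.

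Promoter windows of 300 bases, from 250 before to 50 after a start site, were found for 30 of the 40 genes. An ISRE core was present in 15 of the 30, which is 50%, against 3.99% of all 27025 genes with a window. A GAS core was present in 10 of the 30 (33.3%), against 9.55% of all genes. The core letters GNGAAAGT of the Blimp1 site were present in 3 of the 30 (10%), against 4.77% of all genes, and the 3 are Gbp2, Ifi35 and Ifih1. The match in Gbp2 overlaps its ISRE core. These are matches of letters on either strand and not measured binding.

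Markers of the sorted cells and of myeloid cells were both measured. Each array had 32.3% to 38.3% of its probes above background. Foxp3 had intensities of 433, 165 and 216 in CKO replicates 1, 2 and 3, against 480, 212 and 141 in Ctrl replicates 1, 2 and 3. Prdm1 had 561, 341 and 704 in the libraries labelled CKO, against 18.9, 50.9 and 49.2 in those labelled Ctrl. The level is higher in CKO, and since the position of the probe against the floxed exons is not stated in the labels or methods, it checks nothing about the deletion. Of the 6 T cell markers tested, 0 were past nominal thresholds, defined next, but 5 had log2 fold changes below 0, with a median of -0.47, and their part in the results that follow was not tested. Of the 5 Treg cell markers tested, Ctla4, Ikzf2 and Tnfrsf18 were lower in CKO at those thresholds, where 4.34% of all genes tested were. Il2ra (log2 fold change -0.63) and Foxp3 (0.03) were not past them. The median over the 5 was -1.12, and their part in the results was not tested either.

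Most interferon response genes had lower mean levels in CKO than in Ctrl pTreg cells, and none of them passed the adjusted test without a block. The log2 fold change, CKO minus Ctrl, was below 0 for 28 of the 32 genes tested, against 47.6% of all genes tested, and its median over the 32 was -0.48, against 0.02 over all genes tested and -0.47 over the T cell markers. Nominal thresholds were an unadjusted p under 0.05 in limma with no block and a change of at least 1.5-fold. At these, 8 of the 32 (25%) were lower in CKO, where 4.34% of all genes tested were, and 0 were higher, where 3.09% of all genes tested were. The 8 were Isg20, Parp14, Gbp3, Igtp, Sp100, Eif2ak2, Ifi47 and Parp9. Parp9, Oas2 and Mx2 passed the filter on low values (2 arrays above background) only through Ctrl arrays, and with only probes above background on all 6 arrays 7 genes of the set were lower, where 4.76% of all genes tested were. None of the 32 passed an adjusted p of 0.05 in limma, where 0.156% of all genes tested were lower and 0.115% higher, and 9 had an unadjusted p under 0.05, where 8.06% of all genes tested did. All intensities of CKO lay below all of Ctrl for 10 of the 32, where 7.08% of all genes tested showed this, and for 0 of the 32 the order was the opposite, where 5.95% of all genes tested showed that. With the replicate number as a block in limma, 13 of the 32 were lower at the nominal thresholds, where 7.28% of all genes tested were, and 2 passed an adjusted p of 0.05, where 1.16% of all genes tested were lower. Those 2 were Isg20 and Parp14. Besides the 8, the calls with the block were Ifit3, Oasl2, Usp18, Oas2 and Dhx58, at adjusted p of 0.12 to 0.31 in limma. Of the 26 type I genes tested 10 were called with it, and of the 5 GTPases tested 3 were. In bulk RNA, fewer cells that express a gene and less of its RNA per cell cannot be told apart.

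**Figure D1:**
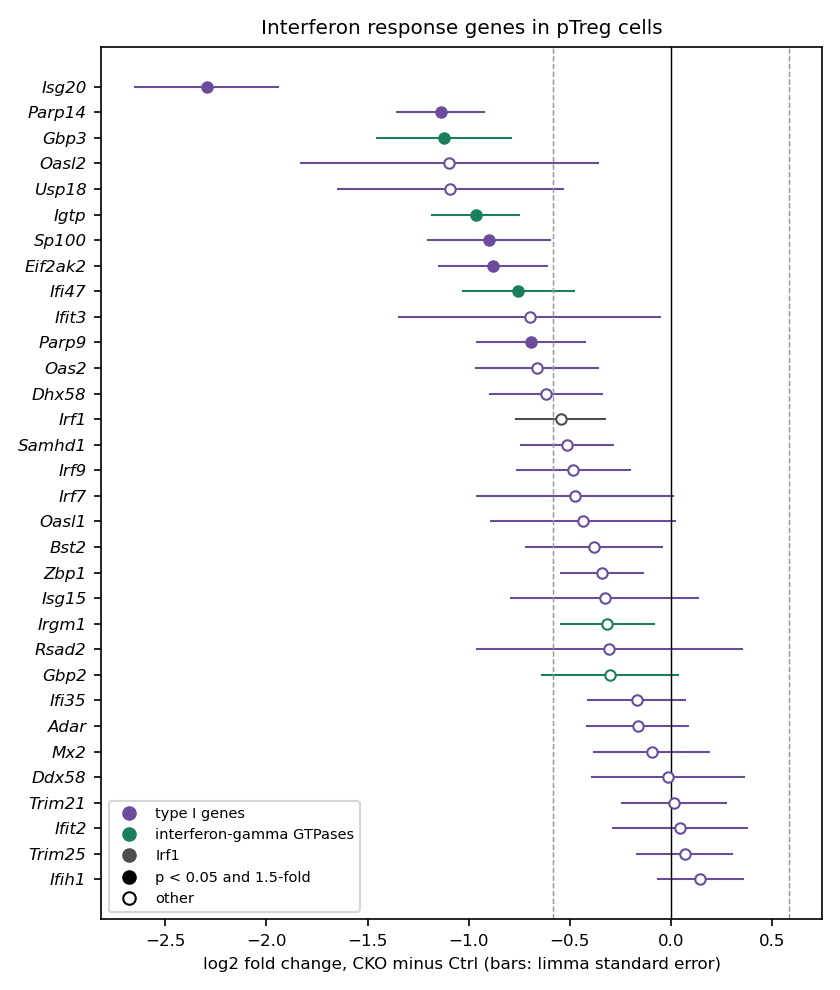
The log2 fold change (CKO minus Ctrl, x axis) of the 32 genes tested, with bars for the limma standard error, dashed lines at 1.5-fold and filled points for genes past the nominal thresholds. The points run from -2.30 for Isg20 to 0.15 for Ifih1, and 28 of the 32 lie left of 0.

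A receptor chain of IFNγ was lower in CKO at the nominal thresholds, and the cytokine itself was far above background in both groups. Ifng had intensities of 24440, 18347 and 18597 in CKO replicates 1, 2 and 3, against 18891, 4885 and 27726 in Ctrl. Its log2 fold change was 0.57 (SE 0.59), and the groups overlap. Ifngr1, the ligand-binding chain, had 87.9, 65.2 and 103 in CKO, against 352, 156 and 239 in Ctrl. Every CKO array lay below every Ctrl array, at a log2 fold change of -1.49 (SE 0.34, adjusted p = 0.18 in limma, and 0.032 with the replicate block). Ifngr2, the signalling chain, had a log2 fold change of -0.17 (SE 0.33), with overlapping groups. The kinase Jak1, which serves both receptors, had 24.0, 21.3 and 18.8 in CKO, against 25.3, 65.2 and 53.4 in Ctrl. The separation rested on replicates 2 and 3, with a difference of only -0.08 on the log2 scale in replicate 1, and the adjusted p in limma was 0.42. Probes of Ifnb1, Ifna4 and Ifnar1 were not above background on any array.

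Of the transcription factors among the 40, only Irf1 reached an unadjusted p under 0.05, and its probes differed in size. Irf1 had 1475, 1986 and 2004 in CKO, against 2783, 2554 and 2561 in Ctrl. The groups did not overlap, and the log2 fold change was -0.54 (SE 0.22, adjusted p = 0.57 in limma). Its other 4 probes gave log2 fold changes of -0.62 to -0.93, so the probe that stands for the gene shows the smallest difference of the 5. With the mean of its probes Irf1 was past the nominal thresholds, at -0.78 (adjusted p = 0.30 in limma). Irf9, the DNA-binding part of the type I complex, had 300, 258 and 230 in CKO, against 495, 376 and 262 in Ctrl. The log2 fold change was -0.48 (SE 0.28), and the lowest Ctrl array lay among the CKO arrays. Irf7, which drives the later wave of type I interferon, had 12.3, 28.6 and 24.1 in CKO, against 49.7, 30.7 and 14.8 in Ctrl. Its difference turned with the pair of arrays, being -2.01 in replicate 1 and 0.70 in replicate 3 on the log2 scale. Of 5 STAT and IRF genes outside the 40, none was past the nominal thresholds, Irf8 being lowest at a log2 fold change of -0.97 (SE 0.43, adjusted p = 0.63 in limma). Irf8 passed them only with the replicate block (adjusted p = 0.11 in limma). Of 6 inhibitors of the pathway none was past them either. Of all genes tested 4.34% were lower and 3.09% higher, so 0 of 5 and 0 of 6 lie near these shares. Socs1, which blocks the JAK kinases, had 38.0, 36.5 and 29.5 in CKO, against 21.6, 22.0 and 28.2 in Ctrl, a log2 fold change of 0.54 (SE 0.23, adjusted p = 0.62 in limma) with no overlap between groups.

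A nuclease and a kinase among the antiviral effectors were lower in CKO at the nominal thresholds, and several of the best known effectors were at background. Isg20, an exonuclease that degrades viral RNA, had intensities of 24.6, 35.0 and 14.2 in CKO replicates 1, 2 and 3, against 119, 137 and 89.2 in Ctrl. The 3 CKO arrays lay far below the 3 Ctrl arrays, a 4.91-fold difference and the largest of the 32 (log2 fold change -2.30, SE 0.36, adjusted p = 0.063 in limma). The block on replicates gave an adjusted p of 0.0081 in limma, and in that fit Isg20 fell. Eif2ak2, the kinase PKR that halts translation on sensing double-stranded RNA, had 57.4, 65.0 and 80.8 in CKO, against 93.0, 129 and 157 in Ctrl. Its groups did not overlap, at a log2 fold change of -0.88 (SE 0.27, adjusted p = 0.35 in limma, and 0.070 with the block). Samhd1, which depletes the nucleotides that viruses need to make DNA, had 374, 328 and 297 in CKO, against 516, 386 and 532 in Ctrl. These did not overlap either, at a log2 fold change of -0.51 (SE 0.23, adjusted p = 0.65 in limma). Of the 16 effectors 12 were tested, and Isg20 and Eif2ak2 were the 2 past the nominal thresholds. The RNA-binding Ifit3 (log2 fold change -0.70, SE 0.65) and Oasl2 (-1.10, SE 0.74) overlapped between groups, and Ifit3 shares sequence with Ifit3b, so that its probe may read both. With the replicate block Ifit3 and Oasl2 were lower at the nominal thresholds (adjusted p = 0.16 and 0.12 in limma). Oas2, which makes the signal that activates RNase L, had 4.01, -5.61 and 8.82 in CKO, against 17.5, 3.17 and 16 in Ctrl, above background on no CKO array and on 2 Ctrl arrays, and no fold is given. Ifit1, Oas1a and Mx1 were above background on 0 arrays and Oas3 on 1 Ctrl array. Of the other effectors, Mx2, Ifit2, Adar, Bst2, Oasl1 and Rsad2 had log2 fold changes between -0.43 and 0.05.

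None of the 4 sensors of foreign RNA or DNA was past the nominal thresholds on the probe that stands for it. Of all genes tested 4.34% were lower and 3.09% higher, so 0 of 4 lies near these shares. Zbp1, a sensor of Z-form nucleic acid, had 28.6, 28.0 and 26.2 in CKO, against 39.0, 35.0 and 31.3 in Ctrl. The groups did not overlap, at a log2 fold change of -0.34 (SE 0.21) for this probe. A second probe gave -1.08 (SE 0.34), past the nominal thresholds, as was the mean of the probes at -0.71 (adjusted p = 0.32 in limma). Dhx58, known as LGP2, had 17.9, 24.6 and 28.1 in CKO, against 37.9, 43.7 and 26.9 in Ctrl, which overlap. With the replicate block Dhx58 was lower at the nominal thresholds (log2 fold change -0.62, adjusted p = 0.31 in limma). Ddx58 (RIG-I) and Ifih1 (MDA5) had log2 fold changes of -0.02 and 0.15, with 4 and 2 of the 6 arrays above background.

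Isg15, a ubiquitin-like modifier whose promoter holds 3 ISRE cores, had 592, 236 and 223 in CKO, against 550, 234 and 480 in Ctrl. Its arrays of replicates 1 and 2 were nearly level between genotypes, and only in replicate 3 was CKO lower. Usp18, which removes Isg15 from proteins and damps the type I receptor, had 121, 536 and 129 in CKO, against 452, 550 and 327 in Ctrl. Its log2 fold change was -1.09 (SE 0.56, adjusted p = 0.72 in limma), with CKO low in replicates 1 and 3 and level with Ctrl in replicate 2. With the replicate block Usp18 was lower at the nominal thresholds (adjusted p = 0.19 in limma).

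Parp14 was lower in CKO at the nominal thresholds, Parp9 was called near background, and neither TRIM ligase passed them. Parp14, a mono-ADP-ribosyltransferase, had 236, 218 and 259 in CKO, against 538, 593 and 445 in Ctrl. The 3 CKO arrays were close together and below every Ctrl array, at a log2 fold change of -1.14 (SE 0.22, adjusted p = 0.13 in limma, and 0.0499 with the block). Parp9, its partner protein, had 11.9, 6.02 and 6.48 in CKO, against 20.2, 17.1 and 11.9 in Ctrl. Only 1 of the 3 CKO arrays was above background, so Parp9 passed the filter only through Ctrl arrays. Its log2 fold change of -0.69 (SE 0.27, adjusted p = 0.52 in limma) uses the background level for the other CKO arrays. The ubiquitin ligase Trim25, which acts in RIG-I signalling, had 323, 431 and 463 in CKO, against 332, 396 and 424 in Ctrl, and Trim21, an antibody receptor in the cytosol, had 139, 159 and 91.5 in CKO, against 124, 121 and 130 in Ctrl. Both overlapped, at log2 fold changes of 0.07 (SE 0.24) and 0.02 (SE 0.26). Among the remaining induced genes, the nuclear body protein Sp100 had 65.1, 109 and 74.1 in CKO, against 211, 132 and 123 in Ctrl. It separated the groups, most of all in replicate 1, at a log2 fold change of -0.90 (SE 0.31, adjusted p = 0.42 in limma), while a second probe, above background on 3 arrays, gave -0.15. Ifi35 had 255, 296 and 272 in CKO, against 403, 268 and 270 in Ctrl, so only Ctrl replicate 1 stood apart. Rtp4 and Xaf1 were above background on 0 arrays, and Ifi44 was not analysed here.

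**Figure D2:**
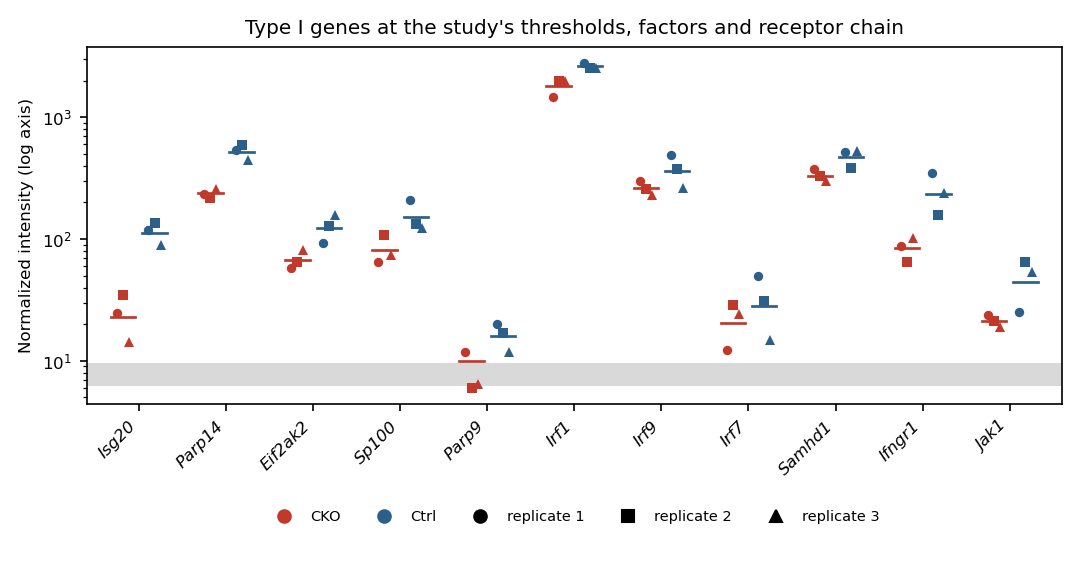
Normalized intensity (log axis) of type I genes past the nominal thresholds, of Irf1, Irf9, Irf7 and Samhd1, and of Ifngr1 and Jak1 on each array, with lines for the group mean of log2 values (raised to the background level where below it) and a grey band over the 6 background levels. Isg20 lies between 14.2 and 35.0 in CKO and between 89.2 and 137 in Ctrl, while the Irf7 arrays of the groups overlap.

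The 5 GTPases tested held 3 of the 8 nominal calls, all lower in CKO, with a median log2 fold change of -0.75. The 26 type I genes tested held 5 (19.2%), all lower, with a median of -0.45. Of all genes tested 4.34% were lower. Igtp (Irgm3), an IRG protein that guards host membranes, had intensities of 1261, 1150 and 1576 in CKO replicates 1, 2 and 3, against 2554, 2687 and 2477 in Ctrl. The groups were well apart, at a log2 fold change of -0.97 (SE 0.22, adjusted p = 0.18 in limma, and 0.067 with the block). Gbp3 had 1088, 763 and 1032 in CKO, against 3344, 1593 and 1660 in Ctrl. Every CKO array was below every Ctrl array, at a log2 fold change of -1.12 (SE 0.34, adjusted p = 0.32 in limma, and 0.067 with the block), and its second probe gave -0.83. Ifi47 (Irg47) had 296, 305 and 518 in CKO, against 540, 645 and 646 in Ctrl. Its groups nearly met, CKO replicate 3 against Ctrl replicate 1, at a log2 fold change of -0.75 (SE 0.28, adjusted p = 0.49 in limma). Irgm1, a regulator of the other IRG proteins, had 2039, 2179 and 2375 in CKO, against 2859, 3259 and 2176 in Ctrl. Ctrl replicate 3 lay among the CKO arrays, at a log2 fold change of -0.31 (SE 0.24). Gbp2 had 3018, 1514 and 3138 in CKO, against 3178, 2351 and 3597 in Ctrl. These overlap at a log2 fold change of -0.30 (SE 0.34), and a dimmer probe of Gbp2 went the other way at 0.76, so no direction is given for this gene. Iigp1 (Irga6), an effector IRG protein, was above background on 0 arrays with each of its 4 probes.

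GTPases outside the 40 were also lower in CKO at the nominal thresholds. Of 13 others listed, 7 were tested, and 5 of the 7 were lower at the nominal thresholds and 0 higher, with a median log2 fold change of -1.30. Gbp7 had 50.0, 58.9 and 106 in CKO, against 249, 298 and 318 in Ctrl. This 4.23-fold difference was the largest among the GTPases (log2 fold change -2.08, SE 0.32, adjusted p = 0.055 in limma), and the block on replicates gave an adjusted p of 0.012 in limma, a fit in which Gbp7 fell. Gbp5, which promotes inflammasome assembly, had 29.1, 55.0 and 51.7 in CKO, against 119, 144 and 71.9 in Ctrl. Irgm2, a near relative of Igtp, had 361, 286 and 314 in CKO, against 587, 562 and 438 in Ctrl. Tgtp1 had 20.4, 1.88 and 6.40 in CKO, with 1 array above background, against 23.7, 26.9 and 38.8 in Ctrl. In all 3 the groups did not overlap, at log2 fold changes of -1.30, -0.72 and -1.30. The value for Tgtp1 uses the background level for its CKO arrays below background. Gbp2b, the fifth, had a log2 fold change of -1.37. Tgtp1 has a near-identical copy, Tgtp2, and the GBP genes resemble each other, so a probe may read more than 1 of them. Over both groups of GTPases 12 were tested, 9 showed no overlap, where 7.08% of all genes tested were lower in this way, and 8 were past the nominal thresholds, where 4.34% of all genes tested were lower. Tgtp1, 1 of the 8, passed the filter only through Ctrl arrays, and 7 were lower with only probes above background on all 6 arrays. The Irgm1 and Gbp3 promoters both hold 2 overlapping ISRE cores and no GAS core, with Irgm1 not past the thresholds and Gbp3 past them. Gbp2 and Gbp2b also hold an ISRE core and no GAS core, with Gbp2 not past the thresholds and Gbp2b past them. The Igtp, Irgm2 and Tgtp1 promoters hold both cores, as do those of Gbp5 and Gbp7, and all of these genes were past the thresholds. Among the type I genes, Eif2ak2 and Bst2 hold both cores, with Eif2ak2 past the thresholds and Bst2 not past them. Oas1a holds both as well and was not tested. Among the 40 genes, an ISRE core was present in 3 of 6 with a window that were called and in 9 of 19 tested and not called. For the GAS core these were 3 of 6 and 6 of 19, and for the Blimp1 site core 0 of 6 and 3 of 19. A relation of these motifs to the calls was not tested.

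**Figure D3:**
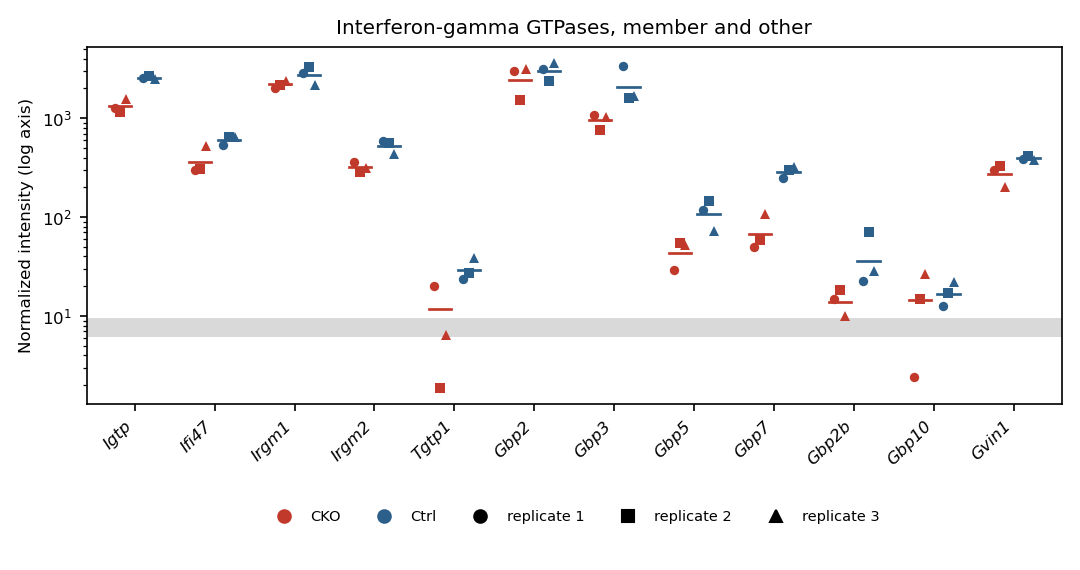
Normalized intensity (log axis) of the 12 GTPases tested on each of the 3 CKO and 3 Ctrl arrays, with lines for the group mean of log2 values (raised to the background level where below it) and a grey band over the 6 background levels. Igtp, Gbp3 and Gbp7 have all CKO arrays below all Ctrl arrays, and those of Irgm1, Gbp2 and Gbp10 overlap.

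Genes of antigen processing, which IFNγ also induces through Irf1 and Nlrc5, were tested as well. Of 10 tested, among them B2m, Tap1, Psmb8 and Psmb9, 0 were past the nominal thresholds. Of all genes tested 4.34% were lower and 3.09% higher at them, so 0 of 10 lies near these shares. The median log2 fold change of the 10 was -0.09, against 0.02 over all genes tested. B2m had 17883, 16902 and 15144 in CKO, against 22035, 18347 and 16280 in Ctrl, with overlap. Nlrc5, the activator of class I genes, had a log2 fold change of 0.41 (SE 0.32). Of 21 other induced genes tested, 4 were lower at the nominal thresholds, where 4.34% of all genes tested were, and 0 higher, where 3.09% were. With the replicate block 11 were lower, where 7.28% of all genes tested were. The 4 called without the block were Ifitm3 (log2 fold change -1.11), which blocks viral entry, Phf11d (-1.04), Slfn1 (-0.95) and Ifit1bl1. Ifit1bl1 was above background on no CKO array and on 2 Ctrl arrays, so that it passed the filter only through Ctrl, and no fold is given for it. Ifitm3 overlapped between groups, with CKO replicate 3 at 1333 and Ctrl replicate 1 at 1177, and lay lower in CKO within each replicate. Over all 75 pathway genes outside the 40, 56 were tested, and 11 were lower at the nominal thresholds (19.6%), where 4.34% of all genes tested were. Tgtp1 and Ifit1bl1 were among the 11, and 0 were higher, where 3.09% of all genes tested were. With only probes above background on all 6 arrays 9 were lower, where 4.76% of all genes tested were. In limma without a block 0 passed an adjusted p of 0.05, and 12 had an unadjusted p under 0.05, where 8.06% of all genes tested did.

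Both classes were also compared within replicates. The CKO and Ctrl cells of 1 replicate number are taken as a pair. Over the 26 type I genes tested, the median log2 difference of CKO minus Ctrl was -0.74, -0.17 and -0.41 in pairs 1, 2 and 3, with 21, 15 and 22 genes lower in CKO. Over the 5 GTPases tested it was -0.87, -1.06 and -0.32, with 5, 5 and 4 genes lower. Over all 9593 genes tested it was 0.07, 0.04 and -0.07, with 4221, 4493 and 5294 genes lower. In pair 2 the GTPases were therefore all lower while the type I genes were divided, and the difference between the classes was not tested. Of the 32 genes, 16 were lower in CKO in all 3 pairs, where 18.1% of all genes tested were, and 0 were higher in all 3, where 19.5% of all genes tested were. Replicate 1 was hybridized on a slide of its own, and each slide held both groups. With the slide as a block, 8 of the 32 were lower at the nominal thresholds, where 5.13% of all genes tested were. Within the slide of replicates 2 and 3 alone 5 were, where 3.89% of all genes tested were, and the median log2 fold changes there were -0.37 for type I genes and -0.70 for GTPases.

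**Figure D4:**
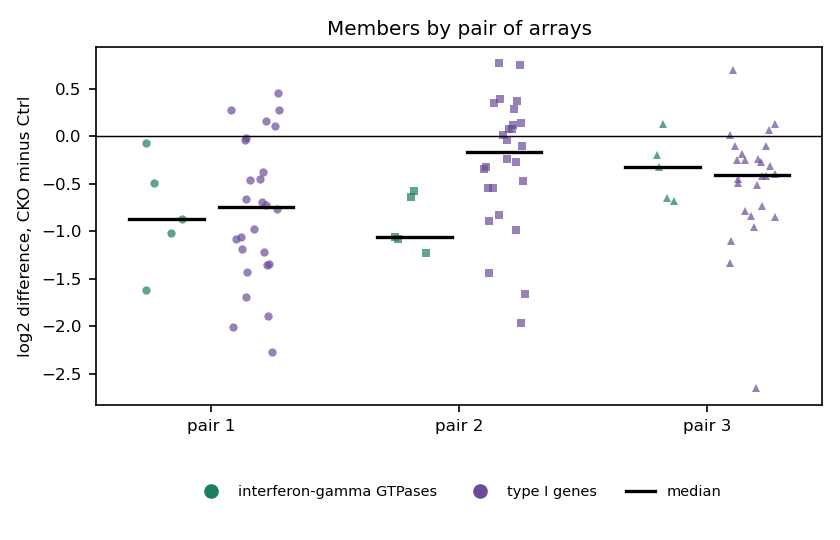
The log2 difference, CKO minus Ctrl (y axis), of each GTPase and type I gene tested in each pair of arrays, with black lines at the medians. The medians lie at -0.87, -1.06 and -0.32 for the GTPases and at -0.74, -0.17 and -0.41 for the type I genes.

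Some type I genes followed the replicate more than the genotype. Rsad2 (viperin), an enzyme that makes a chain-terminating nucleotide, had 63.0, 58.2 and 145 in CKO replicates 1, 2 and 3, against 170, 34.1 and 172 in Ctrl. Oasl2 had 23.5, 2.57 and 75.0 in CKO, against 60.0, 29.0 and 90.4 in Ctrl. Both were lowest in replicate 2 in each group, as were the IFNγ-induced chemokine Cxcl9 and the neutrophil and monocyte gene S100a8, which had 8260, 1083 and 15919 in CKO, against 14068, 1865 and 20847 in Ctrl. Summed over the 7 of 10 myeloid markers tested, the level was 12733, 1801 and 22793 in CKO, against 23483, 2531 and 32792 in Ctrl. The sum, which is mostly S100a8 and S100a9, was lower in CKO in every pair. Of the 7 single markers 7, 3 and 6 were lower in pairs 1, 2 and 3. Of all 9593 genes tested, 4221, 4493 and 5294 were. The median log2 difference of the markers in pair 2 was 0.52, against 0.04 over all genes tested. Without a block 0 of the markers were past the nominal thresholds, where 4.34% of all genes tested were lower and 3.09% higher. With the replicate block 2 were lower at them, where 7.28% of all genes tested were. Itgam and Adgre1 were above background on 0 arrays, Csf1r and Tyrobp on 5, and Lyz2, Cd14, Fcer1g, S100a8 and S100a9 on 6. In replicate 2, where the myeloid sum was lowest, the median log2 difference was -1.06 for the GTPases and -0.17 for the type I genes. Of the 26 type I genes 15 were lower there, where 4493 of all 9593 genes tested were. In this replicate Isg20 was at -1.97, Parp14 at -1.44, Usp18 at -0.037 and Rsad2 at 0.77. The part of myeloid RNA in these values was not tested for any gene of the set. B cell markers were near background. Plasmacytoid dendritic cells are a strong source of type I interferon. Of their markers, Siglech, Klk1 and Cox6a2 were above background on 0 arrays, Bcl11a on 3 and Tcf4 on 5.

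**Figure D5:**
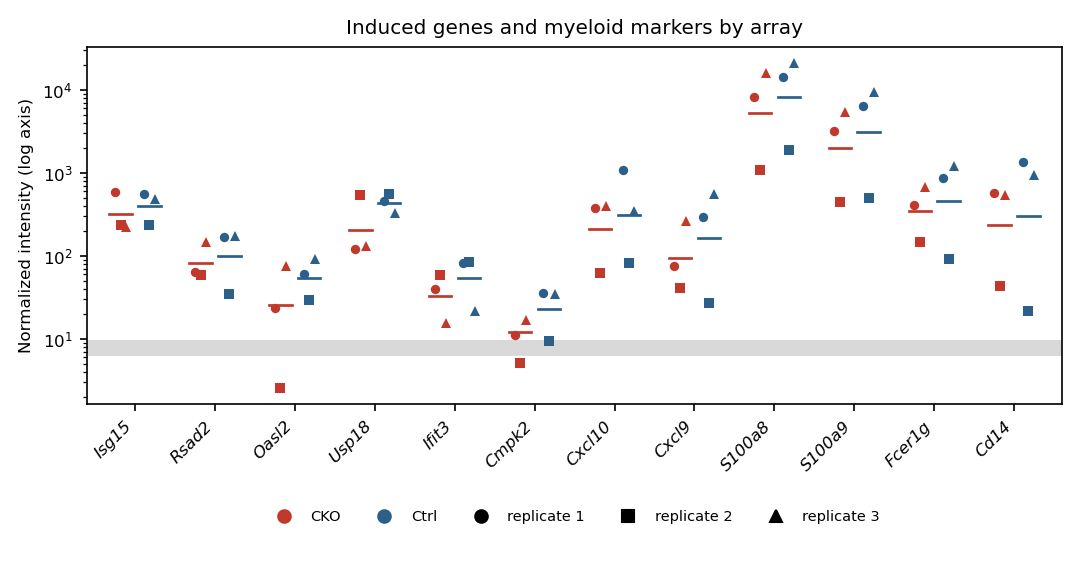
Normalized intensity (log axis) of induced genes and of the myeloid markers S100a8, S100a9, Fcer1g and Cd14 on each array, with lines for the group mean of log2 values (raised to the background level where below it) and a grey band over the 6 background levels. Squares mark replicate 2, at 1083 in CKO and 1865 in Ctrl for S100a8, the lowest array of each group.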

How the data were processed

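Sorted pTreg samples gave total RNA that the authors amplified and measured on Illumina MouseWG 6v2 bead arrays. The deposited values are intensity on a linear scale, exported from Genome Studio and quantile normalized by the authors, with values below 0 where background had been subtracted. Column medians were 2.84 for replicate 1 and 2.64 to 2.65 for replicates 2 and 3. Whether the slides were normalized apart is not stated in the methods. All 6 columns were quantile normalized together here. Probes of olfactory and vomeronasal receptors (1504) set the background, taken per array at their 95th percentile (6.18 to 9.55). Values under the background were set to it before taking log2. Probes above background on at least 2 arrays were kept, and the probe with the highest mean log2 value stood for a gene. A single gene symbol was given by the annotation for 34885 probes, several for 18 and none for 10378. The number of arrays limits the precision, and intensities of different probes are not set against each other as RNA amounts.

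Groups were taken from the genotype in the labels and compared with limma 3.58.1 in R 4.3.3 (lmFit, eBayes, no block, two-sided), with Benjamini-Hochberg adjustment over 9593 genes. The methods call the samples biological replicates. The labels give no donor or animal per sample, and p-values measure the spread between these samples. Replicate numbers pair the samples: labels of replicates 2 and 3 give CKO and Ctrl a shared day, replicate 1 shares a slide, and deviations from group means correlated at 0.51, 0.49 and 0.56 across genes. The block is given where it changes a call among the 40 genes, and for some counts and some genes outside them. Promoter windows are RefSeq's, and no array coordinate is used. The steps were tested on simulated data. Alternatives were the block, the slide, the floor, the filter, the normalization, the choice of probe and leaving out arrays. The 40 genes, the pathway lists and the marker lists were chosen with earlier results of these data known. All 40 are accounted for, and values per array are given for those past the nominal thresholds, the transcription factors, the GTPases and the gene with the highest intensity in each role. Usp18, Oas2, Oasl2, Rsad2, Trim21 and Dhx58 were added after their values were seen, as were Ifngr2, Socs1, Irf8, Nlrc5 and Cxcl9.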

Additional observations from a re-analysis of the deposited data

How the results depend on the processing

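Isg20, Igtp, Gbp3 and Parp14 stayed past the nominal thresholds under all 18 alternatives and Eif2ak2 under 17, while Ifi47 lost the call in 6 of 18, Sp100 in 5 of 18 and Parp9 in 8 of 17. The medians of both classes stayed below 0 throughout. Of the genes of the set lower at the nominal thresholds (8), there were 13 with the replicate block, 5 within the slide of replicates 2 and 3, and 6 to 10 without single arrays. At an adjusted p of 0.05 (0 of the set), 2 were lower with the replicate block, 1 with a fixed floor of 16 and 2 with no filter on dim probes. Of the other pathway genes (11 lower), 19 were with the block, 17 with no filter and 8 to 15 without single arrays. Those higher (0) were 0 to 1 without single arrays and 1 without both arrays of replicate 3, a setting chosen after seeing the data, as was leaving out both arrays of replicate 2 and the count over all GTPases tested. Of the GTPases (8 lower), 5 were without both arrays of replicate 2. Over all genes, the replicate block gave 698 lower and 456 higher at the nominal thresholds, where 416 and 296 were without it. At an adjusted p of 0.05 (15 lower, 11 higher), there were 111 lower and 72 higher with the block, 3 higher with the slide block, 0 and 0 within the slide of replicates 2 and 3, 3 and 1 with a floor of 1, 89 and 61 with no filter, 7 higher with the mean of a gene's probes, 1 to 6 lower and 0 to 8 higher without single arrays, 1 and 0 without replicate 2, and 0 and 0 without replicate 3. Smaller groups leave fewer degrees of freedom, and for the other changes the cause was not tested. The replicate block moved no direction, since the groups are balanced over pairs.

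The log2 fold changes that turned were of genes not past the thresholds. Within the slide of replicates 2 and 3 they were 0.30 for Irf7, 0.019 for Oasl1, 0.26 for Rsad2, 0.076 for Ifi35, -0.011 for Ifih1 and -0.058 for Trim21. With the mean of a gene's probes they were -0.11 for Ifit2 and 0.23 for Gbp2. Without single arrays, or both arrays of replicate 2 or 3, the values ran from -0.33 to 0.25 for Ifit2, -0.78 to 0.062 for Isg15, -0.92 to 0.075 for Oasl1, -0.36 to 0.14 for Mx2, -1.08 to 0.087 for Rsad2, -0.32 to 0.025 for Ifi35, -0.25 to 0.36 for Ddx58, -0.49 to 0.039 for Gbp2, -0.17 to 0.28 for Trim21 and -0.035 to 0.23 for Trim25.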
